A study of Mus musculus with 9 samples.

Results

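Genes for the uptake and intracellular binding of fatty acids were examined in mouse liver. The set held 10 genes chosen by name, namely the fatty-acid translocase Cd36, the fatty-acid transport proteins (FATP) Slc27a2, Slc27a4 and Slc27a5, the lipoprotein receptor Vldlr, and the fatty-acid binding proteins (FABP) Fabp1, Fabp2, Fabp4, Fabp5 and Fabp7. All 10 were above 0 in at least 1 liver, among 16889 symbols above 0 and 23183 symbols in all. Poly(A)-selected liver RNA was sequenced from 9 male mice, with 1 library per mouse, and all belonged to C57BL/6J, an inbred strain that gains weight on a fat-rich diet. The ND group (mice 6, 7 and 9) ate a normal diet with 14% fat, and the HFD group (mice 1, 2 and 3) ate a diet with 60% fat. The PRF 50 group (mice 3, 9 and 10) ate the same 60% fat diet and received 50 mg/kg of PRF, a polymethoxyflavone-rich fraction of Citrus sunki leaf in carboxymethyl cellulose, by mouth each day for the last 5 weeks. All mice were labelled as 100 days old, and each diet was fed for 10 weeks. Mouse numbers name animals within a group, so equal numbers in different groups are different mice.

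Long-chain fatty acids reach hepatocytes bound to albumin or inside lipoprotein particles. CD36 and the FATP proteins promote their entry at the membrane, FATP proteins also couple them to coenzyme A, and the VLDL receptor takes up triglyceride-rich particles. Inside the cell, small FABP proteins carry fatty acids to sites of oxidation, storage and secretion and to nuclear receptors such as PPARA, a fatty-acid sensor whose known target genes include Cd36, Fabp1 and Slc27a2.

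Levels are given as log2(FPKM + 1), where FPKM counts fragments per transcript length and sequencing depth, so that levels of different genes can be ordered. In the tissue check, 9 of 10 hepatocyte markers were above 0 in all 9 livers, led by Apoa1, the main protein of HDL, at 12.69 to 13.50. Albumin (Alb) was listed at 0 in every liver, so an exact 0 is reported here only as listed at 0. Relative to HFD mouse 1, the sequencing depth estimated from low values was 1.06, 1.15 and 1.11 in the ND mice, 1.16 and 1.59 in HFD mice 2 and 3, and 0.979, 1.52 and 0.959 in the PRF 50 mice. These are bulk tissue values, in which fewer cells of a type and less RNA per cell cannot be told apart.

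The order of levels was led in every group by Fabp1, the liver-type binding protein, followed by Slc27a2, Slc27a5 and Fabp2. Mean Fabp1 was 15093 FPKM in the ND group, 17384 FPKM in the HFD group and 9308 FPKM in the PRF 50 group. None of these 4 genes overlapped with the next of the 4 in any group. Below them the order differed between the groups. Cd36 stood at place 6 of 10 in the ND group (mean 21.1 FPKM), place 5 in the HFD group (68.6 FPKM) and place 8 in the PRF 50 group (11.9 FPKM). In the ND group the ranges of Fabp2 and Fabp5 and of Fabp5 and Cd36 overlapped. Neighbors also overlapped from Fabp4 to Fabp7 in the HFD group, where Slc27a4 and Fabp5 lay between them, and from Fabp5 to Cd36 in the PRF 50 group, where Fabp4 and Fabp7 lay between them. Vldlr was the lowest member in all groups, with means of 0.512, 1.06 and 0.318 FPKM in the ND, HFD and PRF 50 groups.

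**Figure D1:**
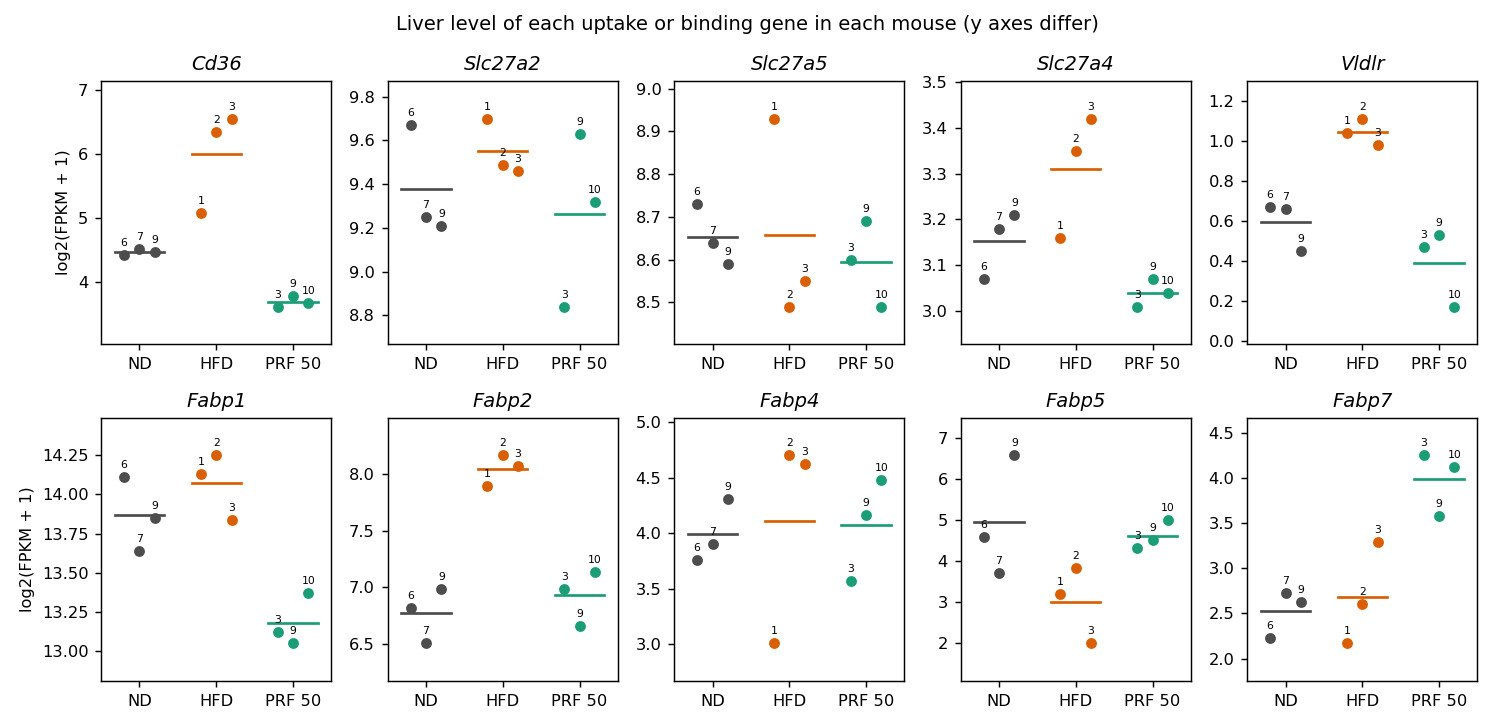
Level of each of the 10 genes, as log2(FPKM + 1) on the y axis, in each mouse of the ND, HFD and PRF 50 groups. Points are mice with their numbers, bars are group means (n = 3 each), and the y axes differ between panels. The HFD mice lie above the mice of both other groups for Cd36, Fabp2 and Vldlr, and the PRF 50 mice lie above them for Fabp7.

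Differences were tested with limma on every gene that averaged 1 FPKM or more in the 6 mice compared, and a gene was called at a Benjamini-Hochberg adjusted p under 0.05. Of the 10 members 9 were tested in each comparison, and Vldlr was below the minimum. HFD vs ND addressed the effect of the diet. Here 1 of 9 members (Fabp2) was called, higher in the HFD group, against 1.33% of 9978 tested genes (0.702% higher and 0.631% lower). The median log2 difference was 0.16 over the members and -0.01 over all tested genes. PRF 50 vs HFD addressed the effect of PRF in mice on the fat-rich diet. Here 2 of 9 (Cd36 and Fabp2) were called, both lower with PRF, against 3.59% of 10084 genes (1.43% higher and 2.16% lower), and the medians were -0.27 and -0.02. In PRF 50 vs ND, Cd36 was called lower and Fabp7 higher, against 0.458% of 10051 genes (0.159% higher and 0.298% lower), with medians of -0.11 and -0.03. Counts of genes at an unadjusted limma p under 0.05 are given below for gene lists. Over all tested genes these were 1504, 2039 and 1256 in HFD vs ND, PRF 50 vs HFD and PRF 50 vs ND.

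The counts of tested members whose mice did not overlap between groups were 2 of 9 in HFD vs ND (Cd36 and Fabp2), 6 of 9 in PRF 50 vs HFD and 3 of 9 in PRF 50 vs ND (Cd36, Fabp1 and Fabp7). Over all tested genes these shares were 20.7%, 26.2% and 19.9%. Between PRF 50 and HFD, Fabp5 and Fabp7 were higher and Cd36, Fabp1, Fabp2 and Slc27a4 were lower in every PRF 50 mouse than in every HFD mouse. HFD vs ND and PRF 50 vs HFD share the HFD mice, and each shares a group with PRF 50 vs ND, so the comparisons are not independent of each other.

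**Figure D2:**
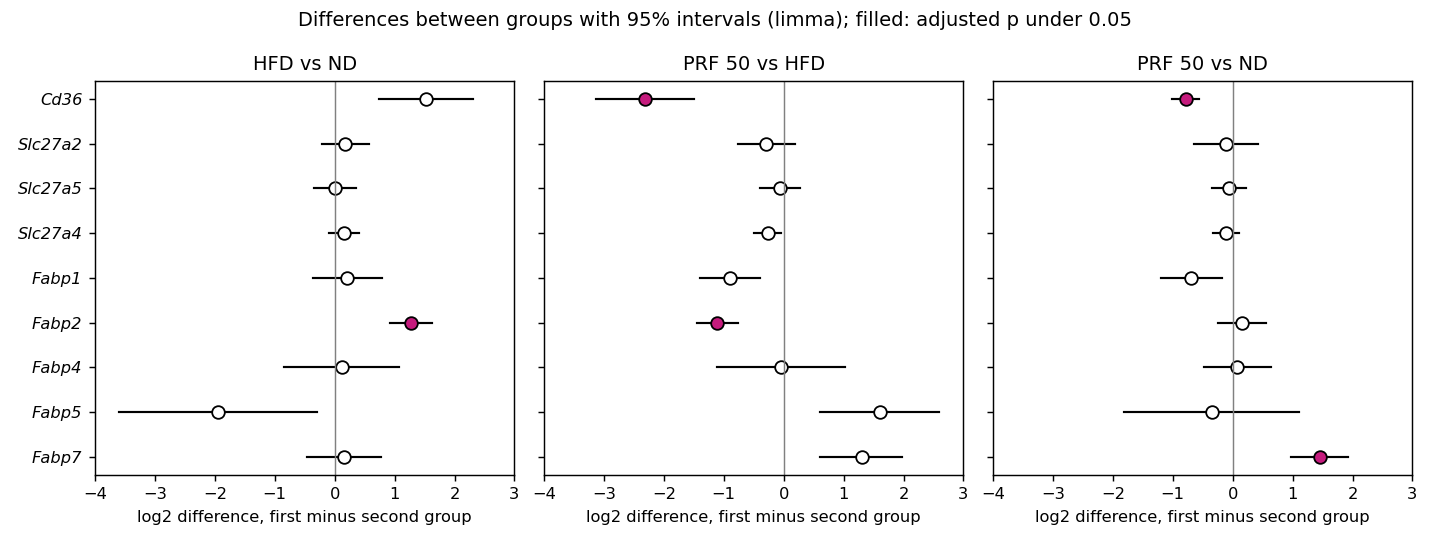
Log2 difference (x axis, the group named before vs minus the group named after it) of the 9 tested genes in each comparison, with 95% intervals from limma and n = 3 mice per group. Filled points have an adjusted p under 0.05, which are Fabp2 in HFD vs ND, Cd36 and Fabp2 in PRF 50 vs HFD, and Cd36 and Fabp7 in PRF 50 vs ND.

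Cd36 codes for a scavenger receptor that binds long-chain fatty acids and oxidized lipoproteins. Its level was 4.42, 4.51 and 4.47 in ND mice 6, 7 and 9, 5.08, 6.34 and 6.55 in HFD mice 1, 2 and 3, and 3.61, 3.78 and 3.66 in PRF 50 mice 3, 9 and 10. The 3 groups did not overlap, the PRF 50 mice lay below both other groups, and HFD mouse 1 stood well below HFD mice 2 and 3. Cd36 fell by 2.31 in PRF 50 vs HFD (SE 0.350, 95% interval -3.13 to -1.49, adjusted p = 0.0249), which is 4.95-fold lower on the scale of FPKM + 1. It also fell by 0.78 in PRF 50 vs ND (SE 0.0968, adjusted p = 0.0229). In HFD vs ND the difference was 1.53 (95% interval 0.74 to 2.31) and was not called (adjusted p = 0.0922). Without HFD mouse 1 that difference was 1.98 with an adjusted p of 0.00173, and with all 9 mice in 1 fit the adjusted p was 0.0476, while over all omissions of a mouse it ranged from 0.00173 to 0.273.

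The Cd36 calls depended on single mice and settings. In PRF 50 vs HFD the adjusted p was 0.0845 without HFD mouse 2, 0.0711 without HFD mouse 3, 0.0766 without PRF 50 mouse 3, 0.0551 without PRF 50 mouse 10, and 0.0612 with no minimum level, within a range of 0.000457 to 0.0845, and the difference stayed between -2.77 and -2.03. For PRF 50 vs ND the adjusted p was 0.0689 without ND mouse 6, 0.126 without ND mouse 7, and 0.130, 0.0521 and 0.0501 without PRF 50 mice 3, 9 and 10, and it was 0.0555 with no minimum level and 0.279 when all 9 mice were fitted together.

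Adipocytes also express Cd36, so markers of this cell type were examined beside it. Of the 8 adipocyte markers, Plin1, Lep and Slc36a2 were listed at 0 in all 9 livers, and Adipoq was at 0 apart from 0.35 in HFD mouse 2 and 0.14 in HFD mouse 3. The most abundant marker over all livers was Cfd, which codes for adipsin, at 0.73, 1.01 and 1.37 in the ND mice, 0.66, 2.86 and 3.85 in the HFD mice, and 0.28, 0.69 and 0 in the PRF 50 mice. Summed over the list, markers reached 6.89 and 14.1 FPKM in HFD mice 2 and 3, which were also the mice with the highest Cd36, and Cfd made up 6.29 and 13.4 FPKM of these sums. HFD mouse 1 was at 1.60 FPKM, where Adrb3 was the largest part. Adrb3, above 0 in all livers, did not follow Cd36, at 1.01, 0.41 and 0.62 in HFD mice 1, 2 and 3 and at 0.44, 1.05 and 1.01 in PRF 50 mice 3, 9 and 10. Retn and Adig were at 0 in all but 1 and 2 livers, respectively. The sums were 1.01 to 1.94 FPKM in the ND mice and 0.566 to 1.68 FPKM in the PRF 50 mice. Cfd was not called in HFD vs ND (1.43, adjusted p = 0.389) or in PRF 50 vs HFD (-2.14, adjusted p = 0.155), where Cd36 was called lower and where Cfd was at an unadjusted p under 0.05, and the part of adipocyte RNA in the Cd36 values was not tested.

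The genes outside the set with the pattern most like that of Cd36, by Pearson r of the log2 levels over the 9 livers among 10039 genes, were G0s2 (r = 0.979), Chkb (r = 0.976) and Cidec (r = 0.976). These r values include the differences between the 3 groups and are given as a description. G0s2 is an inhibitor of triglyceride lipolysis and Cidec is a lipid droplet protein. Cidec was 1.85, 1.42 and 1.90 in the ND mice, 1.99, 3.74 and 3.79 in the HFD mice, and 0.08, 0.90 and 0.36 in the PRF 50 mice. As for Cd36, HFD mouse 1 stood below HFD mice 2 and 3.

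Slc27a2 and Slc27a5 are the FATP genes known for hepatocytes, where their proteins also activate very long-chain fatty acids and bile acids, respectively. Slc27a2 was 9.67, 9.25 and 9.21 in the ND mice, 9.70, 9.49 and 9.46 in the HFD mice, and 8.84, 9.63 and 9.32 in the PRF 50 mice. Slc27a5 was 8.73, 8.64 and 8.59 in the ND mice, 8.93, 8.49 and 8.55 in the HFD mice, and 8.60, 8.69 and 8.49 in the PRF 50 mice. The groups overlapped for both genes, and PRF 50 mouse 3 had the lowest Slc27a2 level. Neither gene was called in any comparison, and the 95% intervals in PRF 50 vs HFD were -0.77 to 0.19 for Slc27a2 and -0.40 to 0.27 for Slc27a5.

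Slc27a4, the main FATP of the intestine, was far lower, at 3.07, 3.18 and 3.21 in the ND mice, 3.16, 3.35 and 3.42 in the HFD mice, and 3.01, 3.07 and 3.04 in the PRF 50 mice. Every PRF 50 mouse was below every HFD mouse, although the difference of -0.27 (SE 0.0927) was not called (adjusted p = 0.164). Over the 6 FATP genes in the tables, the summed level lay between 854 and 1331 FPKM, and Slc27a2 took 53.5% to 65.9% of it. Slc27a5 took 33.0% to 45.5%, with the highest share in PRF 50 mouse 3. Of the other FATP genes, Slc27a1 was the most abundant, at 1.46 to 2.27 in the 9 livers.

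Vldlr codes for the receptor of very low density lipoproteins, best known from muscle, fat and vascular cells. It was 0.67, 0.66 and 0.45 in the ND mice, 1.04, 1.11 and 0.98 in the HFD mice, and 0.47, 0.53 and 0.17 in the PRF 50 mice. The HFD mice lay above all others, and the ND and PRF 50 mice overlapped. With no minimum level, the log2 difference was 0.45 in HFD vs ND (adjusted p = 0.145), -0.65 in PRF 50 vs HFD (adjusted p = 0.0623) and -0.20 in PRF 50 vs ND (adjusted p = 0.560), all from limma and none called. On the scale of FPKM + 1 such differences understate the change of a gene this low, and with a pseudocount of 0.1 the values were 0.95, -1.57 and -0.62.

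Fabp1 codes for the most abundant cytosolic fatty-acid binding protein of hepatocytes. It was 14.11, 13.64 and 13.85 in the ND mice, 14.13, 14.25 and 13.84 in the HFD mice, and 13.12, 13.05 and 13.37 in the PRF 50 mice. The ND and HFD mice overlapped, and all PRF 50 mice lay below both. In FPKM these levels made up 2.34% to 2.70% of the summed FPKM in the ND mice, 2.79% to 3.57% in the HFD mice and 1.54% to 1.93% in the PRF 50 mice. Among all genes of a liver, Fabp1 had rank 3 in each ND and HFD mouse, with Rnu6 above it in HFD mouse 2 only. Fabp1 had rank 10, 7 and 7 in PRF 50 mice 3, 9 and 10. The difference was -0.90 in PRF 50 vs HFD (SE 0.215, 95% interval -1.40 to -0.39, adjusted p = 0.0727) and -0.69 in PRF 50 vs ND (adjusted p = 0.256), and neither was called. Under quantile normalization both differences were -1.09 (adjusted p = 0.0583 and 0.0962), and the HFD vs ND difference, 0.21 in the main fit, was 0. This 0 and the equal values of -1.09 were fixed by the ranks. Quantile normalization gives genes of equal rank the same value, and Fabp1 had rank 3 in each ND and HFD mouse. The PRF 50 vs HFD difference was called with a minimum of 10 FPKM (adjusted p = 0.0254) and without a trend in eBayes (adjusted p = 0.0280), in a range of 0.0254 to 0.432 over the settings that kept all mice.

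Summed over the 10 FABP family genes, the level was 17878, 12860 and 15058 FPKM in the ND mice, 18223, 19811 and 15007 FPKM in the HFD mice, and 9045, 8647 and 10764 FPKM in the PRF 50 mice. Every PRF 50 mouse was below every other mouse. Fabp1 held between 98.0% and 99.1% of this sum in each liver. The share of Fabp2 was 0.626% to 0.835% in the ND mice, 1.30% to 1.79% in the HFD mice and 1.16% to 1.39% in the PRF 50 mice. In PRF 50 vs ND the higher share went with a lower Fabp1, since Fabp2 itself differed by 0.16 (adjusted p = 0.736) with overlapping mice. Of the FABP genes outside the set, Fabp6 and Fabp9 were listed at 0 in all livers.

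**Figure D3:**
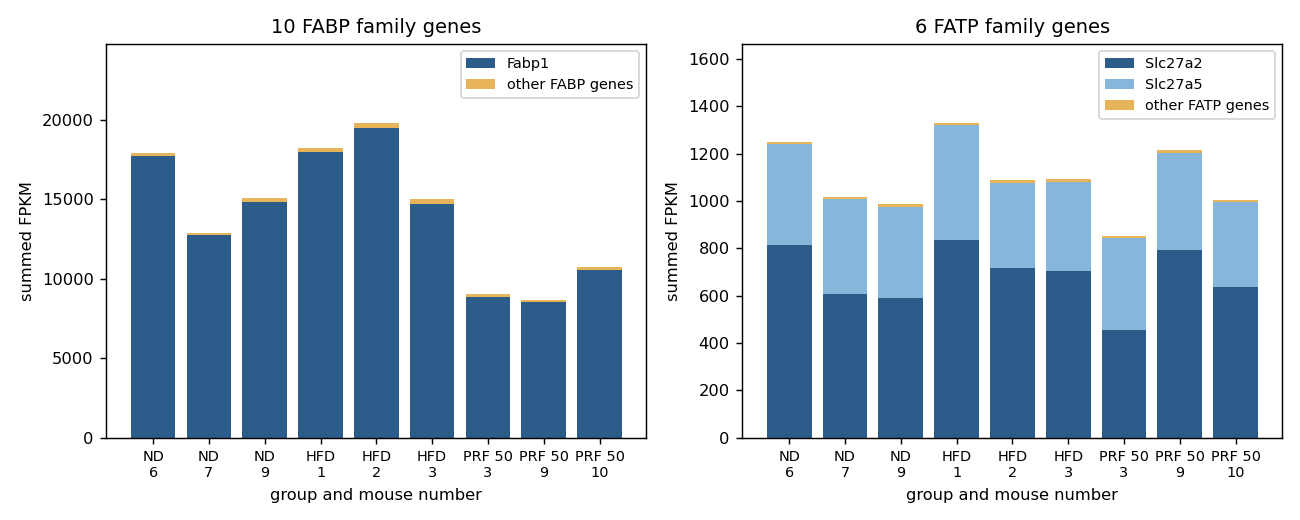
Summed FPKM (y axis) of the 10 FABP genes and the 6 FATP genes in each mouse (x axis), divided into the leading genes and the rest. Fabp1 makes up at least 98.0% of the FABP sum in each mouse, and the FABP sums of the PRF 50 mice, at 8647 to 10764 FPKM, lie below all others.

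Promoter sequences of 7 of the 10 members were in the RefSeq table on build GRCm38.p6, with 250 bases before and 50 bases after each start, and Fabp4, Fabp5 and Slc27a5 had no entry. They were searched on both strands for AGGNCANAGGNCA, a direct repeat of the kind bound by PPARA with its partner RXR, since several members are known PPARA targets. This motif occurred in 0.381% of 32851 promoter windows in the table (125) and, among the members, in that of Fabp1. The shorter motif AGGTCA, which also occurs inside some of the longer matches, was in 16.3% of all windows and in those of 4 of the 7 members (Cd36, Fabp1, Fabp7 and Slc27a2). The stretches below are shown for the member with the longer match and for Cd36 and Fabp7, which were called in PRF 50 vs ND. They were chosen to lie outside the exons of the GENCODE M21 models, and they read 5′ to 3′ on the strand of the gene, with the match in capitals.
Fabp1: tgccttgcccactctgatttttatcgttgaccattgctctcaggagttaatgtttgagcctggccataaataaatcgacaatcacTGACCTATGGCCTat
Cd36: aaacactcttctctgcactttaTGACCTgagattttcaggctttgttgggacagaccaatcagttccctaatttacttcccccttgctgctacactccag
Fabp7: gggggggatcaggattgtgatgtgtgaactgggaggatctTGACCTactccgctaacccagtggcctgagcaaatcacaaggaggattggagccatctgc
The Fabp1 stretch lies at chr6:71199727-71199826 on the plus strand, with the match 67 to 55 bases before the start. The Cd36 stretch lies at chr5:17836047-17836146 on the minus strand, inside the span of the gene (chr5:17781690-17888959), and its match is 228 to 223 bases before the start used in the table. The Fabp7 stretch lies at chr10:57784712-57784811 on the plus strand, with the match 171 to 166 bases before the start. All 3 matches read as the reverse complement of the motif, and binding at these sequences was not measured.

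Fabp2 codes for the intestinal-type binding protein, which is best known from enterocytes. It was 6.82, 6.51 and 6.99 in the ND mice, 7.89, 8.16 and 8.07 in the HFD mice, and 6.99, 6.66 and 7.14 in the PRF 50 mice. All HFD mice were above all others, and the ND and PRF 50 mice overlapped. Fabp2 rose by 1.27 in HFD vs ND (SE 0.152, 95% interval 0.92 to 1.62, adjusted p = 0.0115), which is 2.41-fold higher on the scale of FPKM + 1. It fell by 1.11 in PRF 50 vs HFD (SE 0.146, 95% interval -1.45 to -0.77, adjusted p = 0.0175). The PRF 50 vs ND difference was 0.16 (95% interval -0.24 to 0.56, adjusted p = 0.736). The HFD vs ND call was lost without HFD mouse 2 (adjusted p = 0.0539) or HFD mouse 3 (0.0537), in a range of 0.0162 to 0.0539 over omissions of a mouse. The PRF 50 vs HFD call was lost without HFD mouse 2 (0.0708), HFD mouse 3 (0.0681) or PRF 50 mouse 3 (0.0545), in a range of 0.0256 to 0.0708.

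Of the 8 enterocyte markers, Sis, Lct, Alpi, Fabp6 and Cdh17 were listed at 0 in all 9 livers, and Vil1 and Muc13 did not exceed 0.12 and 0.07. The remaining marker, Apoa4, which codes for an apolipoprotein of chylomicrons and is also expressed in mouse liver, was the most abundant. It was 6.56, 5.88 and 6.81 in the ND mice, 9.52, 9.72 and 8.58 in the HFD mice, and 6.61, 7.54 and 7.37 in the PRF 50 mice. Like Fabp2, Apoa4 rose in HFD vs ND, by 2.86 (adjusted p = 0.0110), and fell by 2.10 in PRF 50 vs HFD (adjusted p = 0.0299). The list summed to 57.8 to 110.9 FPKM in the ND mice, 380.5 to 839.8 FPKM in the HFD mice and 96.6 to 185.6 FPKM in the PRF 50 mice. The genes most like Fabp2 over the 9 livers were Apmap (r = 0.977), Odc1, which codes for the polyamine enzyme ornithine decarboxylase (r = 0.966), and Ghitm (r = 0.964).

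Fabp4 and Fabp5 lie in 1 cluster of FABP genes on chromosome 3, at chr3:10204342-10208616 and chr3:10012585-10016610, together with Pmp2, Fabp9 and Fabp12. Fabp4 is known from adipocytes, macrophages and capillary endothelium. It was 3.76, 3.90 and 4.31 in the ND mice, 3.01, 4.70 and 4.62 in the HFD mice, and 3.57, 4.16 and 4.48 in the PRF 50 mice. The groups overlapped, and HFD mouse 1 had the lowest value while HFD mice 2 and 3 had the highest. No difference in Fabp4 was called, and the 95% interval in PRF 50 vs HFD was -1.11 to 1.03.

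Markers of endothelial cells were examined beside Fabp4. All 8 were above 0 in each liver, with Clec4g, a lectin of sinusoidal endothelium, as the most abundant. Their summed level was 50.8, 68.5 and 89.1 FPKM in the ND mice, 23.3, 53.2 and 67.8 FPKM in the HFD mice, and 54.8, 55.1 and 87.9 FPKM in the PRF 50 mice. In the HFD group the lowest sum was that of HFD mouse 1, as for Fabp4. By limma 0 of 8 markers were called in each comparison, with 1, 1 and 0 at an unadjusted p under 0.05 in HFD vs ND, PRF 50 vs HFD and PRF 50 vs ND. The part of endothelial RNA in the Fabp4 values was not tested.

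Fabp5, the epidermal-type binding protein, was 4.59, 3.71 and 6.57 in the ND mice, 3.20, 3.82 and 2.0 in the HFD mice, and 4.32, 4.50 and 5.0 in the PRF 50 mice. Fabp5 had the widest range of the members, from 2.0 in HFD mouse 3 to 6.57 in ND mouse 9. The PRF 50 mice lay above all HFD mice and the ND mice overlapped with both. The difference was 1.60 in PRF 50 vs HFD (SE 0.428, 95% interval 0.60 to 2.60, adjusted p = 0.0949) and -1.95 in HFD vs ND (SE 0.715, adjusted p = 0.261). Neither was called. The PRF 50 vs ND difference of -0.35 turned to 0.46 without ND mouse 9. RefSeq also lists a pseudogene of Fabp5 (Fabp5l2), and any reads shared with it could not be separated in these values, which was not examined.

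Fabp7, the brain-type binding protein, is known in liver from Kupffer cells, the resident macrophages. It was 2.23, 2.73 and 2.63 in the ND mice, 2.17, 2.60 and 3.29 in the HFD mice, and 4.25, 3.58 and 4.12 in the PRF 50 mice. All PRF 50 mice lay above all others, and the ND and HFD mice overlapped. Fabp7 rose by 1.45 in PRF 50 vs ND (SE 0.204, 95% interval 0.97 to 1.92, adjusted p = 0.0401), which is 2.73-fold higher on the scale of FPKM + 1. The PRF 50 vs HFD difference was 1.30 (95% interval 0.61 to 1.98) and was not called (adjusted p = 0.0619), although it was called when all 9 mice were fitted together (adjusted p = 0.0340, in a range of 0.0340 to 0.116 over the settings that kept all mice). The PRF 50 vs ND call was lost without ND mouse 6, 7 or 9 (adjusted p = 0.137, 0.111 and 0.0553), without PRF 50 mouse 3 or 10 (0.130 and 0.0627) and with no minimum level (0.121), and it was 0.0265 without PRF 50 mouse 9.

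Like Fabp7, the 8 markers of Kupffer cells and macrophages were highest in the PRF 50 mice, and none of them was at 0 in any liver. Their summed level was 44.4, 83.2 and 110.8 FPKM in the ND mice, 54.4, 92.0 and 86.2 FPKM in the HFD mice, and 301.6, 183.2 and 197.0 FPKM in the PRF 50 mice. Each PRF 50 mouse was above each other mouse in this sum and for all 8 markers. The order of mice in this sum was that of Fabp7 in the PRF 50 group, but not in the ND or HFD group. Of the 8 markers, 7 were called higher in PRF 50 vs HFD, with a median difference of 1.39. Among them were Adgre1 (1.60), Timd4 (1.49), Csf1r (1.40), Clec4f (1.38) and the most abundant marker, the complement gene C1qa (1.34). Marco, the marker that was not called, had the widest spread among the PRF 50 mice, at 5.90, 2.21 and 4.38. By limma 0 of 8 were called in PRF 50 vs ND, with a median difference of 1.34. All 8 had an unadjusted p under 0.05 there, as did 1256 of 10051 tested genes. In HFD vs ND 0 of 8 were called, 0 had an unadjusted p under 0.05, and the median was 0.03. The part of these cells in the Fabp7 values was not tested.

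The genes most like Fabp7 over the 9 livers were the actin cross-linker Flna (r = 0.978), the immunoglobulin Fc receptor Fcgr3 (r = 0.976) and the scaffold protein gene Iqgap1 (r = 0.975). Fcgr3 was 1.81, 2.20 and 2.47 in the ND mice, 2.01, 2.38 and 2.62 in the HFD mice, and 3.61, 3.02 and 3.44 in the PRF 50 mice. As for Fabp7, PRF 50 mouse 3 was the highest and PRF 50 mouse 9 the lowest of its group.

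**Figure D4:**
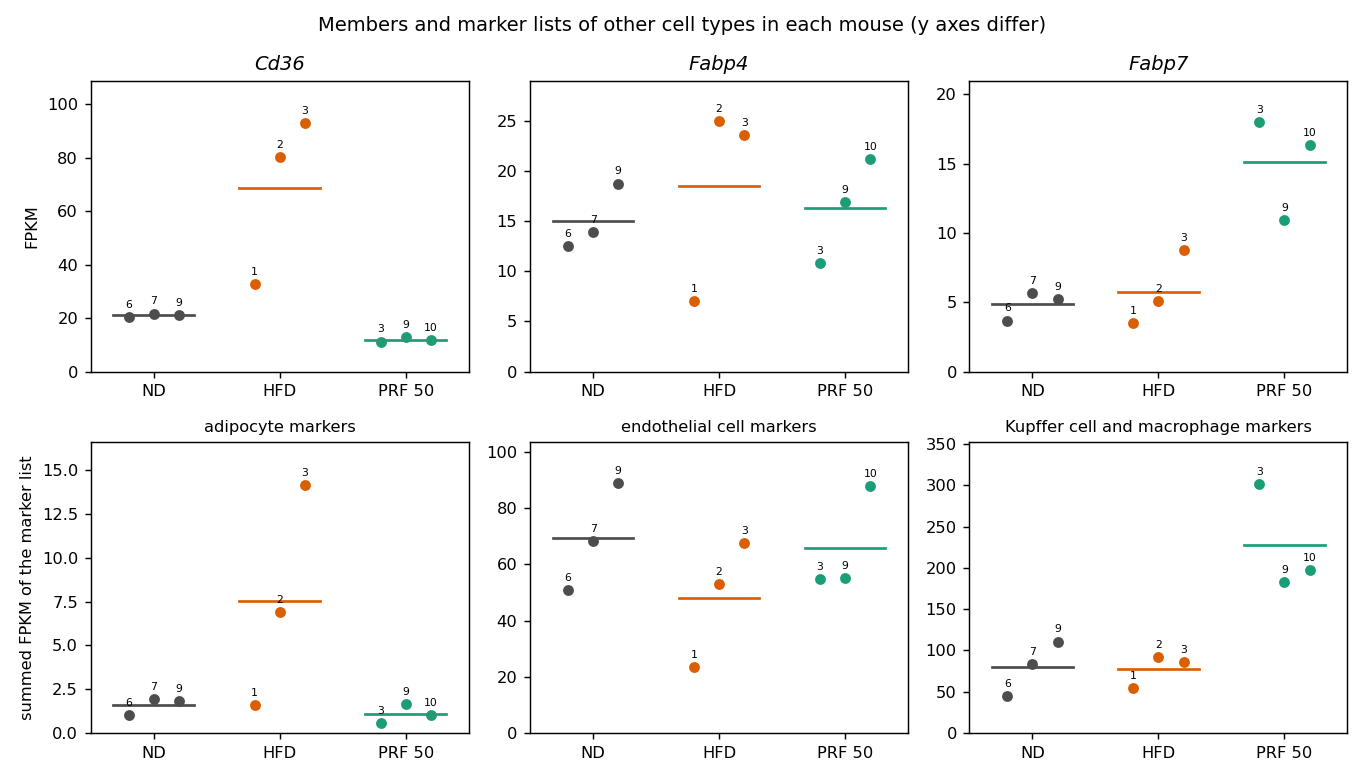
FPKM of Cd36, Fabp4 and Fabp7 (upper row, y axis) and summed FPKM of adipocyte, endothelial, and Kupffer cell and macrophage markers (lower row, y axis) in each mouse, with bars for group means (n = 3 each) and y axes that differ. HFD mouse 1 stands below HFD mice 2 and 3 for Cd36, Fabp4 and the marker lists under them, and the PRF 50 mice stand above all others for Fabp7 and the Kupffer cell and macrophage list.

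The remaining marker lists held 1 called gene in any comparison, Cd9 of the lipid-associated macrophage list, which fell by 0.99 in the HFD group relative to the ND group (limma adjusted p = 0.0309). The other 5 genes of that list had higher means in HFD than in ND mice. Of these, 3 had no overlap between the groups, against 20.7% of tested genes. They had means under 1 FPKM, where no such share was computed, and were not tested. Of the 6 genes 2 were tested, Cd9 and the most abundant, Spp1 (0.16 in HFD vs ND, adjusted p = 0.669), with 1, 0 and 2 at an unadjusted p under 0.05 in HFD vs ND, PRF 50 vs HFD and PRF 50 vs ND. In the hepatocyte list 9 of 10 genes were tested, with medians of -0.08, 0.34 and 0.04 in the same order, and in the stellate cell list all 8, with medians of 0.23, 0.18 and 0.45. In the hepatocyte list 3, 1 and 0 genes had an unadjusted p under 0.05, and in the stellate cell list 0 in each comparison. All 4 erythroid genes in the tables were tested, with medians of -0.27, 0.27 and -0.28 and with 0, 0 and 1 at an unadjusted p under 0.05. Of the cholangiocyte and pancreatic acinar cell lists at most 1 gene was tested.

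Genes around the members in the pathway were described from fixed lists, chosen with earlier results of these data known. Over all tested genes 1.33%, 3.59% and 0.458% were called in HFD vs ND, PRF 50 vs HFD and PRF 50 vs ND. The medians over all tested genes were -0.01, -0.02 and -0.03. Of 20 other PPARA target genes, which act in fatty-acid oxidation and lipid storage, 4 were called higher in HFD vs ND, with a median of 0.58. They were Cyp4a14 (1.76), Vnn1 (1.40), Pex11a (0.97) and the carnitine palmitoyltransferase Cpt1a (0.60). With PRF all 20 had lower means than in the HFD group, 13 of them were called, and the median was -0.97. The largest called differences were those of the fatty-acid omega-hydroxylases Cyp4a14 (-5.36) and Cyp4a10 (-4.05), the thioesterase Acot1 (-2.49) and the peroxisome gene Pex11a (-1.77). Relative to the ND group, 2 of 18 tested genes were called lower with PRF, Acaa1b (-1.32) and Ehhadh (-1.16) of peroxisomal beta-oxidation, with a median of -0.32.

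Cyp4a14 was 6.73, 6.50 and 5.97 in the ND mice, 8.05, 8.17 and 8.28 in the HFD mice, and 1.62, 4.41 and 2.38 in the PRF 50 mice. The 3 groups did not overlap, and PRF 50 mouse 9 was the highest of its group. The members with the same order of group means, highest in the HFD group and lowest in the PRF 50 group, were Cd36, Fabp1, Slc27a2, Slc27a4 and Vldlr, though only Cd36 and Vldlr had no overlap between the ND and HFD mice. Slc27a5 had a mean of 8.66 in both of these groups. Under quantile normalization the PRF 50 vs ND differences of Slc27a2 and Slc27a5 and the PRF 50 vs HFD difference of Slc27a5 turned positive, at 0.022, 0.091 and 0.0069.

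Of 15 nuclear receptor and transcription factor genes, none was called in HFD vs ND by limma (0 of 15, with 6 at an unadjusted p under 0.05). With PRF, 3 were called lower than in the HFD group, namely Pparg (-1.25), the constitutive androstane receptor Nr1i3 (-0.93) and the pregnane X receptor Nr1i2 (-0.67). Pparg, a receptor that drives Cd36 and Fabp4 in adipocytes, was also called lower in PRF 50 vs ND (-1.12, adjusted p = 0.0416). It was 3.56, 3.58 and 3.56 in the ND mice, 3.45, 3.83 and 3.83 in the HFD mice, and 2.60, 2.67 and 2.08 in the PRF 50 mice. HFD mouse 1 was the lowest HFD mouse here as for Cd36, and all PRF 50 mice were below all others. Ppara, named after its values were seen, was not called in HFD vs ND (0.59, adjusted p = 0.0521) or PRF 50 vs HFD (-0.52, adjusted p = 0.0830). The most abundant gene of the list, Hnf4a, was not called in any comparison.

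Of 12 acyl-CoA synthetase genes, whose enzymes trap fatty acids in the cell as CoA esters, 9 were tested, and 2 were called lower in PRF 50 vs HFD, Acss3 (-2.35) and the most abundant gene, Acsl1 (-1.11). In HFD vs ND and PRF 50 vs ND 0 of 9 were called by limma, with 5 and 4 at an unadjusted p under 0.05. Acsl1 was 7.91, 7.97 and 7.81 in the ND mice, 8.53, 8.36 and 8.77 in the HFD mice, and 7.04, 7.53 and 7.74 in the PRF 50 mice. The 3 groups did not overlap, with the HFD mice highest and the PRF 50 mice lowest.

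Among 11 other fatty-acid binding and membrane genes, Mfsd2a, a transporter of lysophosphatidylcholine, was called lower in PRF 50 vs HFD (-1.39, adjusted p = 0.0428), and Scp2, the most abundant, was not called. In the other comparisons 0 of 11 were called by limma, with 1 (HFD vs ND) and 2 (PRF 50 vs ND) at an unadjusted p under 0.05. Of 12 tested lipoprotein receptor and lipase genes, the sorting receptor Sort1 was called higher in PRF 50 vs HFD (0.81, adjusted p = 0.0322). In HFD vs ND and PRF 50 vs ND 0 of 12 were called, with 1 each at an unadjusted p under 0.05, and Apoe was the most abundant. Of the FABP and FATP genes outside the set, Slc27a1 alone was tested and was not called.

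**Figure D5:**
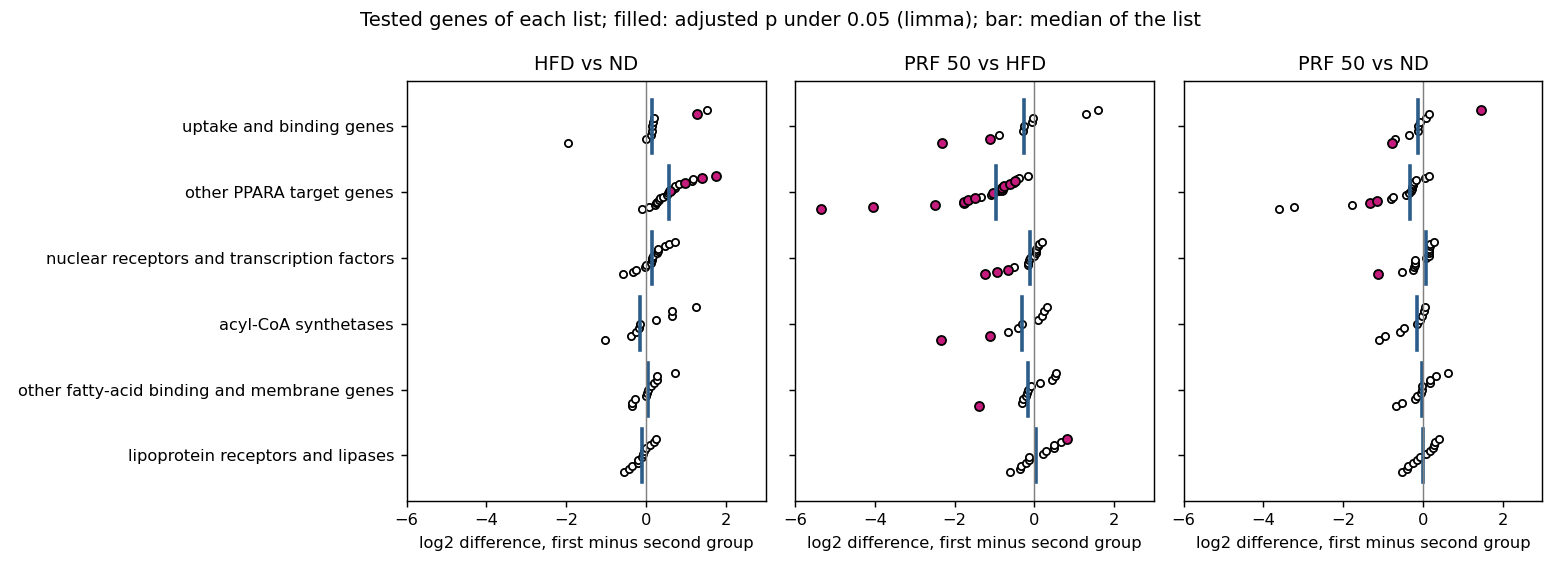
Log2 difference (x axis, the group named before vs minus the group named after it) of each tested gene of the member set and 5 pathway lists in each comparison. Filled points have an adjusted p under 0.05 (limma, n = 3 mice per group) and vertical bars are list medians. All 20 other PPARA target genes lie below 0 in PRF 50 vs HFD, with a median of -0.97, while the members range from -2.31 (Cd36) to 1.60 (Fabp5).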

How the data were processed

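Liver RNA-Seq values of 9 mice were used, and the sample labels placed 3 in each group. Per the labels and the methods of the authors, reads were trimmed (FASTX_Trimmer, BBMap) and aligned to mm10 by TopHat, FPKM came from Cufflinks, and a geometric normalization followed. The authors deposited 1 log2 value per symbol and mouse, read here as log2(FPKM + 1). The pseudocount was inferred from a lowest value of 0. The base was checked with transcript lengths (GENCODE M21), since FPKM times length summed to less than the total that FPKM allows with base 2 and to more with base e. The annotation and tool versions are not given in the sources used here. Read counts were not used, so the counting error of each value is unknown, and relative depth came from ratios of low values. No gene above 0 had exactly equal deposited values in any pair of mice.

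Values were fitted with limma (version 3.58.1, lmFit and eBayes with a trend) in R (version 4.3.3) on the 6 mice compared, where the mean reached 1 FPKM. P-values were adjusted by Benjamini-Hochberg over all tested genes and called under 0.05, and all p-values of single genes are from limma. An exact permutation test of 3 mice against 3 cannot go below 0.1 and was not used. The fit was tested on simulated data. The named genes were the 10 members, the called genes of each list (at most 4 per list and comparison, by size), the most abundant gene of each list, and the 3 genes most like each called member. Marker genes at 0 and genes marked as such fall outside this rule. So do the other adipocyte and enterocyte markers, Marco, Rnu6 and genes named only for their position. A single gene that this rule selects is not reported here by name, and it stays in the counts and medians of its list. The members and lists were chosen with earlier results of these data known. Promoters and gene positions were taken from RefSeq on GRCm38.p6, whose chromosomes are those of mm10. For shares of the summed FPKM, Rnu6 was left out, since it was at 22.44 in HFD mouse 2 and at 0 in the other mice. The alternatives were all 9 mice in 1 fit, omission of each mouse, quantile normalization, a pseudocount of 0.1, a minimum of 10 FPKM or none, eBayes without a trend and median-of-ratios scaling.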

Additional observations from a re-analysis of the deposited data

How the results depend on the processing

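No call of a member reversed. Of the values of single members, 303 kept their side of the threshold without turning to the opposite sign (some were 0). These include Vldlr with no minimum level, which had no main test and moved by less than the spread. A further 23 lost a call, 5 gained a call, 18 changed sign and the 3 of Vldlr at a pseudocount of 0.1 moved by more than the spread. With no minimum level, which tests more genes, 37, 126 and 11 genes were called in HFD vs ND, PRF 50 vs HFD and PRF 50 vs ND in place of 133, 362 and 46, with 1 member (Fabp2), 1 member (Fabp2) and 0 members. With all 9 mice in 1 fit, 2 members (Cd36 and Fabp2) were called in HFD vs ND, and in PRF 50 vs ND 107 genes and 1 member (Fabp7). With a minimum of 10 FPKM, 1 member (Cd36) was called in PRF 50 vs ND, where Fabp7 was not tested. Under quantile normalization the difference was 0.0069 for Slc27a5 in PRF 50 vs HFD, and 0.022 for Slc27a2 and 0.091 for Slc27a5 in PRF 50 vs ND, for a cause that was not tested.

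Without each mouse in turn, 35 to 140 genes and 0 to 2 members were called in HFD vs ND, 15 to 242 genes and 0 to 2 members in PRF 50 vs HFD, and 4 to 71 genes and 0 to 1 members in PRF 50 vs ND. The lowest counts of genes were those without HFD mouse 3, HFD mouse 3 and ND mouse 7, respectively. Signs changed within -0.17 to 0.67 for Fabp4, -0.15 to 0.41 for Fabp7 and -0.14 to 0.08 for Slc27a5 in HFD vs ND. In PRF 50 vs HFD they did so within -0.59 to 0.25 for Fabp4 and -0.15 to 0.071 for Slc27a5. The ranges in PRF 50 vs ND were -0.12 to 0.33 for Fabp4, -0.97 to 0.46 for Fabp5 and -0.30 to 0.098 for Slc27a2. None of these differences was called. No paired analysis was possible because equal numbers in different groups name different mice. Each group held 3 mice, and read counts were not used.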
